A study of Mus musculus with 2 samples.

Results

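The 10 genes described here encode mouse receptors for the amines histamine (Hrh1, Hrh2 and Hrh3) and serotonin (Htr1a, Htr1b, Htr1d, Htr1f, Htr2a, Htr3a and Htr7). They were matched by gene symbol, and all 10 were found among the 31253 genes of the count matrices. The study profiled single cells of lumbar (L4-5) dorsal root ganglia, which hold the cell bodies of the sensory neurons of the hind limb, from wildtype mice aged 8 weeks. Both libraries, replicates 1 and 2, came from the acetone-ether-water (AEW) group, in which the skin is treated to model dry-skin itch, so every value below is from treated mice and the effect of treatment was not measured. The labels do not say whether the 2 libraries came from separate animals or from pools. The p-values therefore rest only on how differences between classes varied between these 2 libraries. The question addressed is which cells of the ganglion carried RNA for each receptor.

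Histamine and serotonin are released by mast cells, platelets and other cells of skin and blood, and both can excite sensory endings and provoke itch or pain. Hrh1 and Htr2a couple to Gq proteins and phospholipase C, Hrh2 and Htr7 couple to Gs and raise cyclic AMP, and Hrh3 and the Htr1 receptors couple to Gi/o and lower neuronal excitability and transmitter release. Htr3a differs from all of these in that it encodes a subunit of a serotonin-gated cation channel. Sensory neurons fall into classes with different peripheral targets, and a receptor's distribution among them bears on which sensations an amine can modify.

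The receptor genes lie on 8 chromosomes, with Hrh2 and Htr1a sharing chromosome 13 and Htr1b and Htr3a sharing chromosome 9. Coordinates are those of the mouse GRCm38 (mm10) build in GENCODE release 21. Hrh1 spans chr6:114397936-114483296, Hrh2 chr13:54192129-54236180, Htr1a chr13:105443639-105448122, Htr1d chr4:136423524-136444398 and Htr2a chr14:74640840-74709494, all on the plus strand. Hrh3 spans chr2:180099465-180104488, Htr1b chr9:81628291-81633828, Htr1f chr16:64924729-65105854, Htr3a chr9:48899213-48911099 and Htr7 chr19:35958734-36057507, all on the minus strand. Hrh2, Hrh3, Htr1b and Htr3a each overlap an antisense gene on the other strand (Gm16578, Gm17180, D430036J16Rik and Gm32335), and the sources used here do not state whether counting used strand. D430036J16Rik had its highest level where Htr1b did, at 0.271 and 0.276 UMIs per 10000 in PEP-C neurons of replicates 1 and 2, while the other 3 antisense genes had at most 2 UMIs in any neuron class of a library.

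Htr1f, Htr1a, Hrh2 and Htr2a had their highest neuronal level in the same class, the Nppb and Sst itch neurons. The letters just upstream of 3 of these genes, all but Htr2a, are shown. They are RefSeq sequence (GRCm38.p6), written 5′ to 3′ on the gene's own strand and ending at the base before the most upstream annotated start. Htr1f is from chr16:65105855-65106034 on the minus strand, Htr1a from chr13:105443443-105443638 on the plus strand and Hrh2 from chr13:54191879-54192128 on the plus strand. Capitals mark a match to the RUNX motif.
Htr1f: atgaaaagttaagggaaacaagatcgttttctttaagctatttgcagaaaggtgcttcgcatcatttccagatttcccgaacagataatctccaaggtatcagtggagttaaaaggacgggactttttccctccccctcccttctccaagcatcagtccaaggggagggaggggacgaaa
Htr1a: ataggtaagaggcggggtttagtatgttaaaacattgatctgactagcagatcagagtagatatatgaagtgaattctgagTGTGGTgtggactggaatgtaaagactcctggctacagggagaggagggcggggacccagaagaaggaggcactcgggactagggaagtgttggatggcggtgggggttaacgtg
Hrh2: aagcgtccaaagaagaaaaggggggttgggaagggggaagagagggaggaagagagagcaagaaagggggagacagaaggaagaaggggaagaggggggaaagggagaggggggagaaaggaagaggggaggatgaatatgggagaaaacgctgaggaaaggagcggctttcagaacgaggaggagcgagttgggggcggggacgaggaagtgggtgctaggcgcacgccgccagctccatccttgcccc
The windows hold 180, 196 and 250 bases. Their GC content was 45.6% for Htr1f, 50.0% for Htr1a and 59.6% for Hrh2, the last being rich in runs of purines. Both strands were searched for TGTGGT, a RUNX motif, and TAATTA, a homeodomain motif, which do not overlap each other. Only Htr1a had a match, to TGTGGT at bases 82 to 87. Among 32851 promoter windows of the same length, 10.4% (180 bases), 11.4% (196 bases) and 14.0% (250 bases) held TGTGGT, and 3.86%, 4.14% and 4.84% held TAATTA. The match is a description of these letters only.

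The values are unique molecular identifiers (UMIs), each a count of a captured RNA 3′ end, summed over the cells of a class and divided by all UMIs of that class, times 10000. The 2 libraries held 8818 and 11767 barcodes with 113251556 and 102347251 UMIs, of which 7774 and 10270 were used after filters and doublet removal, and 24 barcode sequences occurred in both. The labels call the cells neurons, but neuronal markers defined only 572 and 866 of them (median 109696.5 and 58722 UMIs), and the largest other named class was satellite glia, with 2256 and 2475 cells (median 8189 and 6916 UMIs). Neuronal markers summed to 207 UMIs per 10000 in the neurons of each library and to 21.8 to 76.0 in satellite glia, Schwann, endothelial, mural, fibroblast, macrophage and B cell classes, so some neuronal RNA was counted in each of these classes, and its part in low values there was not tested.

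Of the neurons, 453 and 657 were placed in 8 classes by marker genes that include no receptor studied here, and the other 119 and 209 stayed unnamed. The classes are like the known types only as far as these markers go. They were NP1 (Mrgprd, 105 and 114 cells), NP2 (Mrgpra3, pruriceptors, 43 and 54) and NP3 (Nppb and Sst, pruriceptors, 29 and 35). TH (Th and Slc17a8, low-threshold C fibres) had 52 and 137 cells. PEP-C (Tac1 and Calca, peptidergic C fibres) had 104 and 174. PEP-A (Calca with Nefh, Kit and Smr2, peptidergic A fibres) had 44 and 47. TRPM8 (Trpm8 and Foxp2) had 41 and 30, and NF (Nefh with Pvalb or Ntrk2, other A fibres) had 35 and 66. Values are given below as replicate 1 and replicate 2, in that order.

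Each of the 10 receptors had the same highest neuron class in both libraries, and no single class led for more than 4 of them. NP3 led for Hrh2, Htr1a, Htr1f and Htr2a, NF for Htr1d and Htr7, and NP2, TH, PEP-C and PEP-A for 1 each (Hrh1, Hrh3, Htr1b and Htr3a). NP1 and TRPM8 led for none. Htr1b is the least firm of these, since PEP-C and PEP-A overlapped and a mean over cells in place of summed UMIs put PEP-A first.

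**Figure D1:**
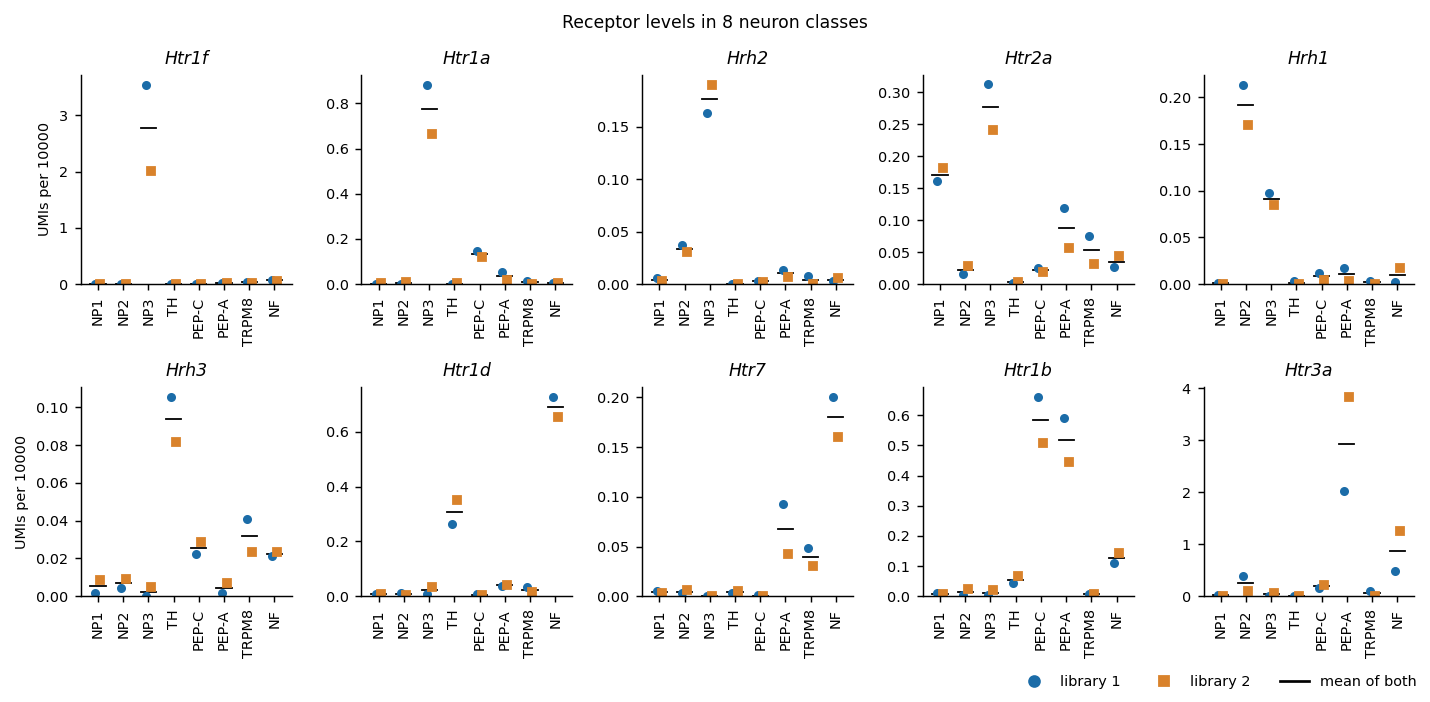
Level of each receptor in the 8 neuron classes, in UMIs per 10000, with 1 point per library and a bar at the mean of 2 libraries. The NP3 class is highest for Hrh2, Htr1a, Htr1f and Htr2a, whereas Htr3a is highest in PEP-A and Htr1d and Htr7 in NF.

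Each class was compared with the mean of the other 7 by edgeR's quasi-likelihood test on class sums, over 13101 genes. NP3 was higher for 5 of the 10 receptors and lower for 4, beside 17.2% and 17.5% of all genes. PEP-A was higher for 5 and lower for 0 (17.3% and 9.83% of all genes), and NF was likewise higher for 5 and lower for 0 (23.9% and 17.2%). NP1 was higher for 1 and lower for 6 (21.4% and 19.0%), and TH was higher for 2 and lower for 6 (21.4% and 16.2%). NP2 was higher for 3 and lower for 3 (15.8% and 11.9%), as was PEP-C (18.4% and 11.8%), while TRPM8 was higher for 2 and lower for 1 (18.1% and 13.9%). The counts furthest from the background shares were those of NP3 in both directions, PEP-A and NF above the other classes, and NP1 and TH below them. All other counts lay nearer these shares. Among them were TRPM8 in both directions, TH and NP1 above the other classes, and the 0 lower in PEP-A and NF. No receptor was lower in NF at an unadjusted p under 0.05, 1 was in PEP-A, and DESeq2 called 0 lower in either. The 10 receptors thus gave 26 higher and 23 lower calls in 80 comparisons, after all 10 passed a filter on low counts that a gene can pass on its leading class alone. Their median log2 difference was 1.29 in NF, 1.04 in both NP3 and PEP-A, -0.53 in TRPM8, -0.69 in PEP-C, -1.05 in NP2, -2.35 in NP1 and -3.22 in TH, where the medians over all genes lay between -0.02 and 0.03.

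The comparison averages logarithms over the other classes, so a class can pass it while another class holds far more of the receptor. Of the 26 higher calls, 19 were also above the pooled level of the other 7 classes in both libraries. The other 7 were not, namely Htr3a in NP2, Hrh3 in PEP-C and TRPM8, Htr2a and Htr1a in PEP-A, and Htr1b and Htr1f in NF. Where a class had no UMIs of a receptor, the fitted difference depends on the small count that edgeR adds. Levels and ratios to the pooled other neurons are therefore given first. Counts of lower calls carry a related limit. Htr7, with no UMI in NP3, was not called lower in PEP-C at 0.00107 and 0 UMIs per 10000. Hrh2, with no UMI in TH, was not called lower in PEP-C (0.0032 and 0.0019) or NF (0.0026 and 0.0058). Receptors nearly absent from a class can thus go without a lower call.

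Hrh1, the histamine receptor blocked by the classical antihistamines, was highest in the 2 pruriceptor classes. NP2 had 0.214 and 0.171 UMIs per 10000, or 17.8 and 21.4 times the pooled other neurons. Its log2 difference from the mean of the other classes was 5.07 ± 0.33 (edgeR's quasi-likelihood test, adjusted p = 6.42e-09). Here and below, the value after ± is the log2 difference divided by the square root of the test's F statistic. It stands in for an SE, was not estimated by edgeR, and depends on the added count where a class had no UMIs. NP3 came second with 0.0975 and 0.0850, 3.65 ± 0.45 above the mean of the others on the log2 scale (edgeR adjusted p = 5.01e-06). The NP2 and NP3 ranges did not overlap each other, and neither overlapped any other class, since PEP-A, NF, PEP-C, TRPM8, TH and NP1 all lay at or below 0.0174. Hrh1 fell in NP1 and TH.

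Hrh2, the Gs-coupled receptor known for gastric acid secretion, was highest in NP3, at 0.163 and 0.190 UMIs per 10000 or 17.7 and 39.8 times the pooled other neurons. Its log2 difference was 5.32 ± 0.34 (edgeR adjusted p = 5.17e-09). NP2 followed without overlap at 0.0369 and 0.0305, which was 2.80 ± 0.43 above the mean of the others on the log2 scale (edgeR adjusted p = 0.00013). The NP2 and NP3 classes thus carried both Hrh1 and Hrh2 above the other neurons, with Hrh1 leading in one and Hrh2 in the other. No Hrh2 UMI was found in TH neurons, which allows a level of up to 0.00452 and 0.00367 UMIs per 10000 by counting error alone.

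Hrh3, a Gi/o-coupled receptor best known as a brake on histamine release in the brain, was highest in a class that had little of the other histamine receptors. TH neurons had 0.106 and 0.0819 UMIs per 10000, or 10.5 and 4.78 times the pooled other neurons (log2 difference 3.35 ± 0.33, edgeR adjusted p = 2.84e-07). TRPM8 (0.0409 and 0.0232), PEP-C (0.0224 and 0.0287) and NF (0.0211 and 0.0232) formed a middle group in which neighbours overlapped. The calls of Hrh3 as higher in PEP-C (adjusted p = 0.0343) and TRPM8 (adjusted p = 0.0397) by edgeR were both lost without the library term. Hrh3 was lowest in NP3, with 0 and 1 UMIs.

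Among the Gi/o-coupled serotonin receptors, Htr1a, the receptor targeted by buspirone, was concentrated in NP3. NP3 had 0.884 and 0.665 UMIs per 10000, or 25.9 and 18.2 times the pooled other neurons (log2 difference 6.58 ± 0.27, edgeR adjusted p = 5.47e-12). PEP-C was second at 0.146 and 0.119, with no overlap, 2.09 and 2.36 times the pooled others (log2 difference 3.70 ± 0.31, edgeR adjusted p = 7.88e-08). The remaining classes were all lower, PEP-A at 0.0528 and 0.0178 and the other 5 at no more than 0.0149. The edgeR call in PEP-A (log2 difference 1.71 ± 0.48, adjusted p = 0.0138) was lost with DESeq2.

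Htr1b, a target of the triptan drugs, was highest in PEP-C and PEP-A, the classes gated as peptidergic. PEP-C had 0.661 and 0.509 UMIs per 10000 and PEP-A 0.590 and 0.445, ranges that overlapped, although PEP-C was higher in each library. The log2 differences were 4.19 ± 0.20 for PEP-C (edgeR adjusted p = 7.2e-11) and 4.06 ± 0.22 for PEP-A (edgeR adjusted p = 3.32e-10). NF at 0.111 and 0.142 and TH at 0.0437 and 0.0660 followed in separate ranges, and NP2, NP3, NP1 and TRPM8 stayed at or below 0.0244. The antisense D430036J16Rik followed the same order at the top (0.151 and 0.189 in PEP-A), and reads of the 2 genes cannot be told apart where they overlap if counting ignored strand.

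Htr1d, the other classical triptan target, was highest in NF, the class gated on Nefh with Pvalb or Ntrk2. NF had 0.728 and 0.653 UMIs per 10000, or 15.4 and 7.37 times the pooled other neurons (log2 difference 4.92 ± 0.18, edgeR adjusted p = 1.21e-12). TH was second at 0.265 and 0.352, with no overlap (log2 difference 3.63 ± 0.19, edgeR adjusted p = 1.17e-10). PEP-C, where Htr1b was highest, had the lowest Htr1d mean of the 8 classes at 0.00748 and 0.00382, and Htr1d fell there, in NP1 and in NP2. In PEP-A, second for Htr1b, the log2 difference of Htr1d was 0.27 ± 0.33 (edgeR adjusted p = 0.599).

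Htr1f, the receptor targeted by lasmiditan, had the steepest distribution of the 10. NP3 had 3.55 and 2.01 UMIs per 10000 against 0.0106 and 0.00823 in the pooled other neurons, a ratio of 335.3 and 243.8. Its log2 difference was 8.73 ± 0.19 (edgeR adjusted p = 1.32e-15). NP3 cells were 29 of 453 and 35 of 657 named neurons, yet they held 1093 of 1146 and 401 of 432 of the Htr1f UMIs in named neurons. NF was a distant second at 0.0713 and 0.0552, and NP1, TH and PEP-C had at most 4 UMIs each in a library.

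Htr2a, the Gq-coupled serotonin receptor, was highest in NP3 at 0.312 and 0.240 UMIs per 10000 and second in NP1 at 0.160 and 0.182, with no overlap. These were 4.10 and 4.19 times the pooled other neurons in NP3 (log2 difference 3.01 ± 0.24, edgeR adjusted p = 3.73e-08) and 2.68 and 4.97 times in NP1 (log2 difference 2.47 ± 0.21, edgeR adjusted p = 4.84e-08). Htr2a was the only receptor of the 10 called higher in NP1. It was lowest in TH at 0.00151 and 0.00367, a fall of -4.43 ± 0.49 on the log2 scale (edgeR adjusted p = 1.29e-06), and NP2, the other pruriceptor class, had only 0.0154 and 0.0275.

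Htr7, the Gs-coupled serotonin receptor, was highest in NF at 0.201 and 0.160 UMIs per 10000, or 13.2 and 23.1 times the pooled other neurons (log2 difference 5.29 ± 0.31, edgeR adjusted p = 1.05e-09). PEP-A (0.0924 and 0.0427) and TRPM8 (0.0483 and 0.0309) followed with overlapping ranges, although PEP-A was higher in each library. Both were called higher by edgeR (3.74 ± 0.38 with adjusted p = 1.53e-06, and 2.72 ± 0.54 with adjusted p = 0.00102). The other 5 classes lay at or below 0.0061. No Htr7 UMI was found in NP3 in either library, which allows up to 0.00975 and 0.0150 UMIs per 10000.

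Htr3a, the channel subunit, was highest in PEP-A at 2.02 and 3.84 UMIs per 10000, or 14.3 and 19.4 times the pooled other neurons (log2 difference 5.12 ± 0.32, edgeR adjusted p = 1.59e-09). NF was second at 0.478 and 1.26 (log2 difference 3.02 ± 0.38, edgeR adjusted p = 6.37e-06), again without overlap. The libraries differed more for Htr3a than for the other leading values, with replicate 2 higher in both classes. NP2 went the other way, with 0.397 in replicate 1 and 0.101 in replicate 2, and overlapped PEP-C (0.166 and 0.221). The edgeR call of Htr3a as higher in NP2 (adjusted p = 0.0251) was lost with DESeq2 and without the library term.

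Htr3b, which encodes the partner subunit of Htr3a in heteromeric channels and is not among the 10, had a similar but flatter spread. Its levels were 0.213 and 0.374 UMIs per 10000 in PEP-A, 0.195 and 0.328 in NF, and 0.2 and 0.165 in NP2, the 3 overlapping in turn. Each was above the mean of the other classes by edgeR's quasi-likelihood test, with log2 differences of 2.90 ± 0.24 in PEP-A (adjusted p = 7.8e-08), 2.67 ± 0.25 in NF (adjusted p = 1.98e-07) and 2.34 in NP2. Htr3a and Htr3b were each called higher in PEP-A, NF and NP2.

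Depth differed between cells, so shares of cells with at least 1 UMI were taken after thinning every neuron to 20000 UMIs and leaving out shallower cells. In NP3, Htr1f was found in 29 of 29 and 27 of 32 cells (100% and 84.4%, exact Clopper-Pearson 95% intervals 88.1 to 100% and 67.2 to 94.7%). Htr1a was found in 25 of 29 and 23 of 32 (86.2% and 71.9%). Neither was a trait of a few cells of the class. By contrast Htr1f was in 0 of 102 and 0 of 108 NP1 cells and in 0 of 103 and 0 of 160 PEP-C cells. Among satellite glia, taken as a background for free RNA and not thinned because of their lower depth (median 8189 and 6916 UMIs), 1.2% and 0.81% of cells had an Htr1f UMI and 0.27% and 0.2% an Htr1a UMI.

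Other receptors were found in a part of their leading class at this depth. Htr3a was in 86.1% and 85.7% of PEP-A cells, Htr1d in 75.8% and 64.7% of NF cells and Htr1b in 61.2% and 61.9% of PEP-C cells. Htr2a was in 58.6% and 37.5% of NP3 and 27.5% and 25.0% of NP1 cells. Hrh2 was in 14 of 29 and 7 of 32 NP3 cells, Hrh1 in 10 of 43 and 10 of 42 NP2 cells, Htr7 in 36.4% and 23.5% of NF cells, and Hrh3 in 5 of 52 and 23 of 123 TH cells. Shares depend on depth, and without thinning Hrh3 was found in 59.6% and 38.0% of TH cells. Of the 80 receptor and class pairs, 19 reached 10% of cells in both libraries. Satellite glia had unthinned shares of at most 3.76% for any of the 10, reached by Htr3a, and of at most 0.13% for Hrh1, Hrh2 and Hrh3.

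Most NP3 cells carried more than 1 of these receptors. At least 2 receptors were found in 29 of 29 and 29 of 32 NP3 cells, in 25 of 36 and 20 of 35 PEP-A cells, and in 23 of 33 and 36 of 51 NF cells. The counts were 28 of 103 and 33 of 160 in PEP-C, 2 of 52 and 28 of 123 in TH, 3 of 43 and 5 of 42 in NP2, 5 of 39 and 0 of 30 in TRPM8, and 3 of 102 and 2 of 108 in NP1. In NP3 the common pair was Htr1a with Htr1f, found together in 25 of 29 and 20 of 32 cells, and Hrh2 was found with Htr1f in 14 and 7 cells, which were all the Hrh2 cells. The common pair in PEP-A was Htr1b with Htr3a, in 20 of 36 and 15 of 35 cells. In NF the libraries differed, with Htr1d and Htr7 together in 9 of 33 and 10 of 51 cells and Htr1d and Htr3a together in 7 of 33 and 22 of 51. Cells of a library are not replicates, and these counts carry no test.

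**Figure D2:**
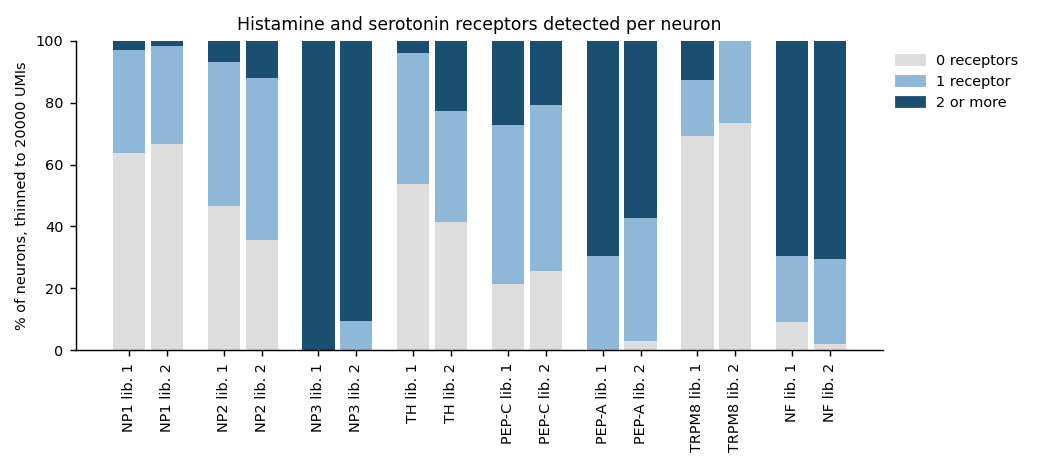
Percent of neurons in each class with none, 1, or at least 2 of the 10 receptors after thinning to 20000 UMIs, for each library. At least 2 receptors were found in 29 of 29 and 29 of 32 NP3 cells and in 3 of 102 and 2 of 108 NP1 cells.

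NF and PEP-C each hold more than 1 kind of neuron, and they were divided by a marker at 1 UMI per 10000, a division chosen after the data were seen. NF cells with Ntrk2, a mark of A-delta low-threshold fibres, numbered 11 and 26. They had more Htr1d than the other 24 and 40 NF cells (0.930 and 1.04 against 0.579 and 0.402 UMIs per 10000) and less Htr1b (0.0248 and 0.0516 against 0.175 and 0.201). Dividing NF by Pvalb, a mark of proprioceptors, gave the reverse for Htr1b (0.187 and 0.230 with Pvalb against 0.0640 and 0.0432 without). Htr1d was lower with Pvalb (0.62 and 0.38 against 0.79 and 0.96), as was Htr7 (0.166 and 0.115 against 0.222 and 0.210). Both markers set apart Htr1f. It was higher with Pvalb (0.166 and 0.0931 against 0.0128 and 0.0124) and lower with Ntrk2 (0.0248 and 0.0221 against 0.106 and 0.077). Htr7 did not separate by Ntrk2, at 0.186 and 0.206 with it and 0.211 and 0.129 without.

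Within PEP-C, the part with Sstr2 (49 and 79 cells) had less Htr3a than the part without (55 and 95 cells), at 0.0259 and 0.0176 against 0.264 and 0.377 UMIs per 10000. Htr1b (0.737 and 0.556 against 0.608 and 0.472) overlapped between these parts, although it was higher with Sstr2 in each library. Htr1a (0.137 and 0.101 against 0.153 and 0.132) overlapped as well, although it was lower with Sstr2 in each library. The Htr3a of PEP-C therefore lay mostly in its Sstr2-low cells, while Htr1a and Htr1b were spread over both.

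**Figure D3:**
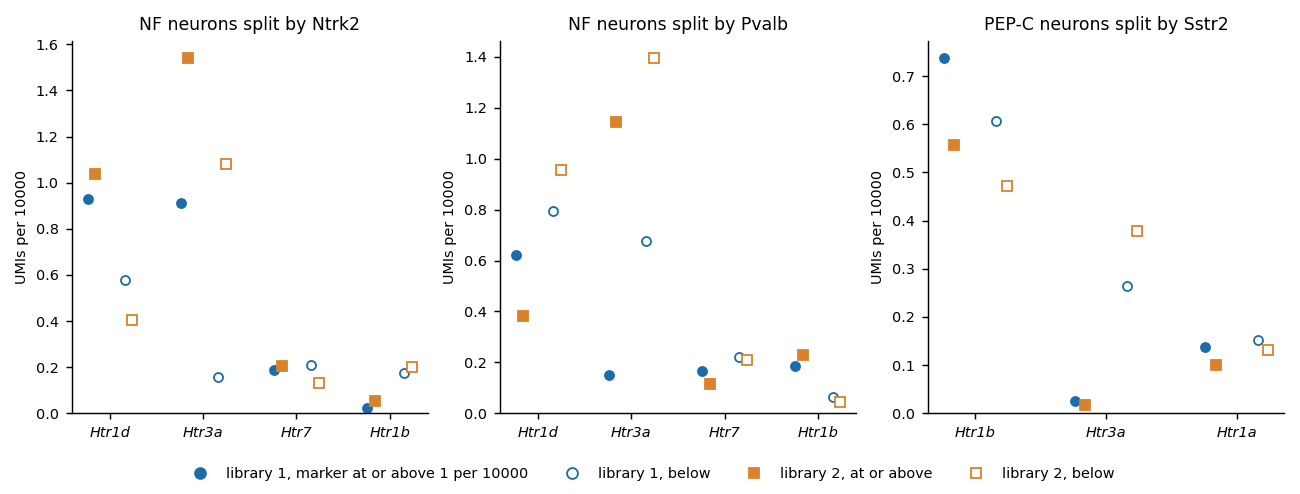
Levels in UMIs per 10000, with 1 point per library, in NF neurons divided by Ntrk2 and by Pvalb (Htr1d, Htr3a, Htr7 and Htr1b). PEP-C neurons are divided by Sstr2 (Htr1b, Htr3a and Htr1a). Htr1d is higher with Ntrk2, Htr1b is higher with Pvalb, and Htr3a is higher in PEP-C cells low in Sstr2.

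A cluster of 70 neurons occurred in replicate 2 only, with a median of 27436 UMIs, and held 30 of the 66 NF, 4 of the 47 PEP-A and 5 of the 35 NP3 cells of that library. Without it, the NF levels of replicate 2 were 0.937 UMIs per 10000 for Htr1d, 1.19 for Htr3a and 0.220 for Htr7, and all 26 higher calls remained. Its 5 cells in NP3 held 12 of the 13 Htr3a UMIs of that class in replicate 2. Clustering of all neurons also gave 2 unlike clusters that both scored as TRPM8. One (35 and 25 cells), with Trpm8 at 2.04 and 0.282 UMIs per 10000, had Hrh3 at 0.0138 and 0.0352 and Htr7 at 0.00921 and 0.00881. The other (11 and 22 cells) had Trpm8 at 0.0305 and 0, Penk at 20.8 and 21.7, Hrh3 at 0.122 and 0.157 and Htr7 at 0.137 and 0.145. The marker-gated TRPM8 class held 11 and 3 UMIs of Hrh3 and 13 and 4 of Htr7. The cluster with more Trpm8 held 3 and 4 UMIs of Hrh3 and 2 and 1 of Htr7 in all its cells. Most Htr7 UMIs of the gated class, and most of its Hrh3 UMIs in replicate 1, therefore lay outside that cluster. How they divided further was not examined.

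Neurons as a whole were compared with the mean of 11 non-neuronal classes over 13178 genes, where 38.0% of genes were higher in neurons and 21.8% lower. Htr1b, Htr1d, Htr1f, Htr2a and Htr3a passed the filter on low counts, and all 5 were higher in neurons, while Hrh1, Hrh2, Hrh3, Htr1a and Htr7 did not pass it. A receptor can pass the filter through its neuronal counts alone, so this count is a description. None of the 5 was lower in neurons, at an unadjusted p under 0.05 or with DESeq2. The log2 differences by edgeR's quasi-likelihood test were 4.36 ± 0.44 for Htr1f (adjusted p = 3.06e-08), 2.33 ± 0.29 for Htr1b (adjusted p = 5.31e-07), 2.14 ± 0.16 for Htr3a (adjusted p = 1.45e-10), 2.08 ± 0.41 for Htr2a (adjusted p = 0.000159) and 1.38 ± 0.27 for Htr1d (adjusted p = 0.000128). With the gate set more strictly, the call of Htr1f was lost.

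Outside the neurons, each of 2 vascular classes was higher for 1 serotonin receptor. Endothelial cells had Htr2a at 0.336 and 0.275 UMIs per 10000 (135 and 151 UMIs), above the 0.0904 and 0.0733 of all neurons together. The log2 difference from the mean of the other non-neuronal classes was 4.36 ± 0.35 (edgeR adjusted p = 1.16e-09). Endothelial cells were higher for 1 of the 5 tested receptors (26.8% of all genes) and lower for 2, Htr1d and Htr3a (17.4% of all genes). Neuronal markers in endothelial cells summed to 21.8 and 29.0 UMIs per 10000, beside 207 in neurons.

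Mural cells, the pericytes and smooth muscle of vessels, had Htr1b at 0.286 and 0.224 UMIs per 10000 (34 and 26 UMIs), beside 0.196 and 0.181 in all neurons. Their log2 difference was 2.96 ± 0.40 (edgeR adjusted p = 5.18e-06). This was the only one of the 5 receptors called in mural cells in either direction (17.0% of all genes higher and 7.92% lower). Both libraries put mural cells above neurons, from these few UMIs, and mural cells were not tested against neurons. Neuronal markers in mural cells summed to 46.3 and 48.6 UMIs per 10000. Satellite glia were higher for 0 of the 5 and lower for 1, Htr3a (28.3% and 15.8% of all genes).

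None of the 5 receptors was called by edgeR in the other 8 non-neuronal classes. The shares of all genes called higher and lower were 18.8% and 8.86% in myelinating Schwann cells, 15.0% and 4.84% in non-myelinating Schwann cells, 20.1% and 8.52% in fibroblasts and 16.1% and 7.11% in macrophages. They were 13.8% and 8.81% in monocytes, 8.21% and 7.32% in B cells, 11.4% and 5.51% in neutrophils and 12.2% and 5.45% in erythroid cells. At an unadjusted p under 0.05, 2 receptors were higher in non-myelinating Schwann cells, 2 in erythroid cells and 1 in macrophages, and 1 was lower in B cells. DESeq2 called 1, Htr1d in erythroid cells.

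**Figure D4:**
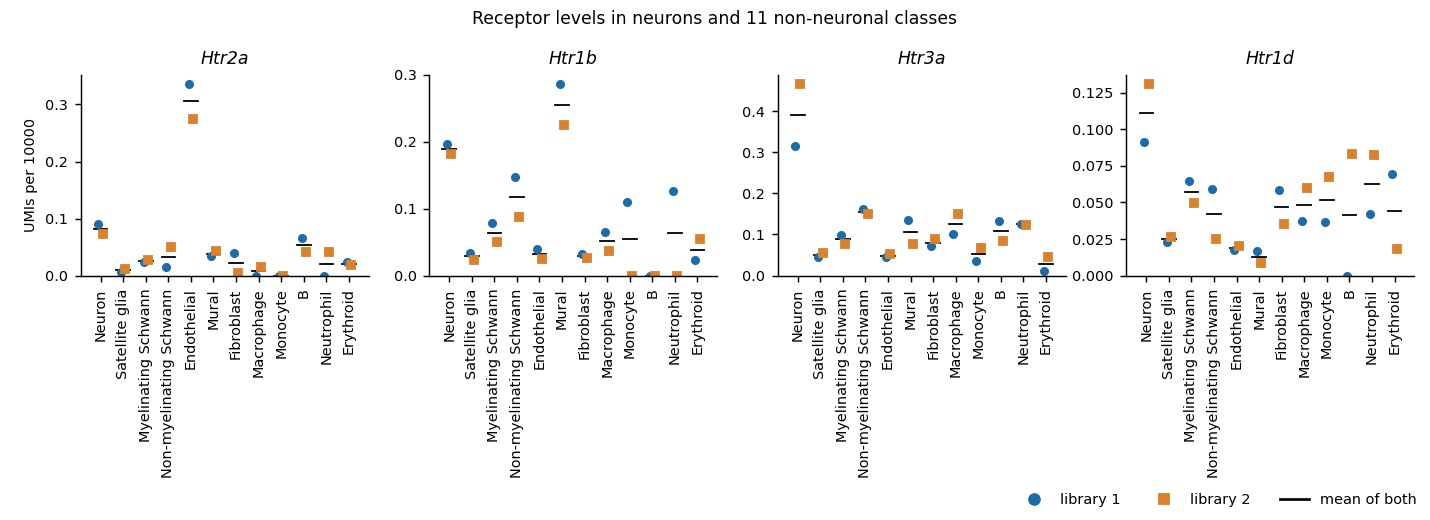
Levels of Htr2a, Htr1b, Htr3a and Htr1d in neurons and in the non-neuronal classes, in UMIs per 10000, with 1 point per library. Htr2a is higher in endothelial cells (0.336 and 0.275) and Htr1b in mural cells (0.286 and 0.224) than in neurons as a whole. Neither class was tested against neurons.

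Several lower values in other classes rested on few UMIs or lay beside much neuronal RNA. Non-myelinating Schwann cells had Htr3a at 0.162 and 0.149, Htr1b at 0.147 and 0.0871 and Htr7 at 0.0663 and 0.0747 UMIs per 10000, with neuronal markers at 63.6 and 67.9 in sum, and the part of free RNA in these values was not tested. Macrophages had Htr3a at 0.102 and 0.149 with neuronal markers at 51.7 and 52.6. Hrh1 reached 0.383 and 0.0805 in perineurial cells from 5 and 2 UMIs, 0.0278 and 0.0522 in macrophages from 3 and 7 UMIs, and 0.0252 and 0.0259 in mural cells.

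The signalling partners of the receptors were read from the same neuron comparisons. In NP3, where 17.2% of all genes were higher and 17.5% lower, 6 of 13 tested Gq pathway genes rose and 2 fell, led by Gna14 (log2 difference 2.94 ± 0.23), a Gq family subunit, and by Prkca (2.59), Plcb3 (2.11) and Prkcd (1.85). Of 8 Gi/o genes in NP3, 5 rose and 1 fell, the rise including the potassium channel Kcnj3 (1.34), a target of Gi/o receptors, and Gnai2, Gnai3 and Gnao1 at 0.79, 0.69 and 0.53. Of 14 Gs genes in NP3, 4 rose and 8 fell, with Adcy2 at 2.45 and Gnal at 1.56 above and Adcy5 at -4.89, Prkar2b at -3.70, Adcy1 at -3.13 and Adcy8 at -3.01. The list medians in NP3 were 0.35 for Gq, 0.42 for Gi/o and -1.10 for Gs, where the median over all genes was -0.02. NP3, with the highest level of the Gs-coupled Hrh2, thus had fewer Gs pathway genes called higher than lower.

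NP2, the class led by Hrh1, had 6 of 13 Gq genes higher and 3 lower, among them Gna14 (2.77) and Plcb3 (2.16), and 2 of 14 Gs genes higher and 4 lower, beside 15.8% and 11.9% of all genes. NP1, which led for no receptor, had 7 Gq genes higher and 5 lower and the same Gs counts as NP3, 4 higher and 8 lower, beside 21.4% and 19.0% of all genes. In PEP-A 9 of 14 Gs genes were higher and 1 lower, beside 17.3% and 9.83% of all genes. In NF 8 Gs genes were higher and 2 lower, beside 23.9% and 17.2%, with Adcy1, a calcium-stimulated adenylyl cyclase, at 3.94. TH, where Hrh3 led, had 8 Gs genes higher and 5 lower (Adcy1 at 3.29), beside 21.4% and 16.2% of all genes. Its Gi/o genes, 2 of 8 higher and 1 lower, were near those shares. Differences between classes in these counts were not tested. Of the 8 coupled channels in PEP-C, 3 were higher and 0 lower (18.4% and 11.8% of all genes), namely Trpv1 (2.44), Trpa1 (1.77) and Cacna1b (0.79), which serve heat, irritant and transmitter-release responses. In NP3, Trpv1 (1.95), Scn10a (1.06) and Trpa1 (0.68) were higher and Trpc4 was lower. Of 6 receptor desensitisation genes, NP3 had 2 higher, among them the kinase Grk5 (2.14), and 3 lower, while TH had 3 higher, among them Grk3 (2.78), and 1 lower. NF (23.9% and 17.2% of all genes) and TRPM8 (18.1% and 13.9% of all genes) each had 0 higher and 3 lower. In endothelial cells 6 of 15 Gq genes were higher and 3 lower, beside 26.8% and 17.4% of all genes, the higher ones including Plcb1 (3.52), Itpr2 (2.90), Gna11 (1.70) and Itpr1 (1.33).

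The other serotonin receptors examined were sparse. Htr5b was highest in TH at 0.119 and 0.111 UMIs per 10000 (log2 difference 5.72 ± 0.46, edgeR adjusted p = 1.89e-07), the class that also led for Hrh3. Htr5a was highest in TRPM8 at 0.0595 and 0.0309, overlapping PEP-C at 0.0352 and 0.0287. All neurons together held 5 and 0 UMIs of Htr2b, 5 and 3 of Htr2c and 5 and 7 of Htr6.

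Of the 11 genes that make, store and clear the amines, 6 could be tested between neurons and the other classes. In neurons 2 were higher, Maoa and Slc29a4, and 0 lower, beside 38.0% and 21.8% of all genes. Hdc, the enzyme that makes histamine, stood at 9.08 and 43.0 UMIs per 10000 in mast cells, but these were only 3 and 8 cells with 11 and 147 UMIs. Neutrophils had Hdc at 8.29 and 8.72 from 197 and 211 UMIs. Tph1, the enzyme that starts serotonin synthesis outside the brain, was in mast cells at 5.78 and 2.63, from 7 and 9 UMIs, as was the serotonin transporter Slc6a4, from 1 and 18 UMIs. The vesicular transporter Slc18a2 was in mast cells at 3.30 and 4.10. The mast cells were too few for a comparison.

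Maoa, which degrades serotonin, was at 3.37 and 3.09 UMIs per 10000 in endothelial cells (log2 difference 3.61 ± 0.13, edgeR adjusted p = 3.98e-16), the class that also carried Htr2a, and Maob there was at 0.209 and 0.246. Endothelial cells had 3 of 6 tested amine genes higher and 0 lower, beside 26.8% and 17.4% of all genes. Among neurons Maoa was highest in TH, at 0.950 and 1.12. PEP-A had 5 of 7 amine genes higher and 0 lower, beside 17.3% and 9.83% of all genes. The higher ones included Hdc (log2 difference 3.43, edgeR adjusted p = 3.71e-05), although Hdc there was only 0.0360 and 0.0640. The cation transporter Slc29a4 was at 0.562 and 0.368 in PEP-C and 0.417 and 0.271 in PEP-A, Slc22a3 was at 0.220 and 0.124 in fibroblasts, Hnmt, which methylates histamine, was at 0.337 and 0.0830 in neutrophils and 0.106 and 0.176 in PEP-C, Ddc was at 0.0570 and 0.0580 in endothelial cells, and Tph2 was at 0.0620 and 0.0250 in PEP-A.

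The genes whose neuronal pattern was most like each receptor were ranked by Pearson correlation of log2(UMIs per 10000 + 0.01) over the 8 classes, taking the lower value of the 2 libraries among 9841 genes. These correlations are descriptions over points that share libraries, and a gene confined to 1 class correlates with any other such gene. For the NP3-led receptors the nearest genes were Trpm6 for Htr1f (r = 0.979), Pde4c for Htr1a (r = 0.957) and Epcam for Hrh2 (r = 0.954), while Htr2a, which is high in both NP3 and NP1, had a weaker nearest gene, 2700081O15Rik (r = 0.858). Nlrx1 was nearest to Hrh1 (r = 0.918) and Nxph3 to Hrh3 (r = 0.928). Ptprd was nearest to Htr1b (r = 0.973), ahead of Tgfb1 (r = 0.950) and the antisense D430036J16Rik (r = 0.947). Sema7a was nearest to Htr1d (r = 0.960), Hhatl to Htr7 (r = 0.966) and Vat1l to Htr3a (r = 0.912).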

How the data were processed

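The data are 2 single-cell RNA libraries (10x Genomics 3′ v3.1). Per the submitters' processing notes the tools were CASAVA 1.8 and Cell Ranger 5.0.1 with build mm10. The deposited matrices hold whole-number UMI counts per gene and barcode, not normalized by the authors; counting strand is not given in the sources used here. Barcodes below 500 detected genes, or at 20% mitochondrial UMIs and above, were left out (8329 and 11290 remained). The 555 and 1020 cells with the highest Scrublet scores were removed, a number set by the loading of each library, because the automatic cut marked 1 and 0. Classes were gated on summed markers, and cells near a gate remain uncertain (37 NP1 cells just inside it and 30 just outside). Class sums of UMIs in each library, for classes with 20 cells or more there, were tested with edgeR 4.0.16 in R 4.3.3 (TMM, filterByExpr, quasi-likelihood test, Benjamini-Hochberg over all genes, 0.05), with library as a term because each library gives every class. The neuron fit had 16 sums with 7 residual degrees of freedom and the broad fit 24 with 11. Intervals and limits (3 counts for a count of 0) cover counting error only.

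On data simulated for NP3 against the other neurons over 12381 genes, 97% of 2-fold and 100% of 4-fold changes were recovered, with 10 false of 207 calls. The changes were placed only in genes at a mean of 0.1 UMIs per 10000 or more over the class sums. All genes were given the same spread. The rates therefore do not cover receptors with lower means, namely Hrh1, Hrh2, Hrh3, Htr2a and Htr7. Python 3.11.15 with scanpy 1.11.5, numpy 2.4.6, pandas 2.3.3 and scipy 1.17.1 was used. Alternatives were DESeq2 1.42.0, no filter, no library term, each library alone, a stricter gate, no doublet removal, Leiden classes, deeper cells and another thinning depth; divisions of NF and PEP-C, and leaving out a cluster found in 1 library, were added after the data were seen. All 10 receptors are reported. Other lists name at most 4 genes per direction and class, largest difference first, among called genes at 0.1 UMIs per 10000 or more in the higher class of both libraries; further serotonin receptors and amine genes are given as levels. The receptors and lists were chosen with earlier results of these data known, and the gating rule after the data were seen.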

Additional observations from a re-analysis of the deposited data

How the results depend on the processing

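The 59 receptor differences called were recomputed 451 times with a test, of which 420 kept their direction and call, 31 lost the call and 0 reversed, and in each library alone, without a test, all 118 values kept their direction. The 26 higher calls among neuron classes became 23 with DESeq2, 27 with no filter on low counts, 26 with the stricter gate, 26 with no doublet removal, 27 with Leiden classes, 25 with neurons of at least 20000 UMIs and 26 without the cluster found in 1 library. Each library pairs its own classes; with no replicate block, the library term left out, the counts were 23 of these 26, 5 of the 5 higher in neurons and 2 of the 2 higher in a non-neuronal class. The 5 receptors higher in neurons became 9 with no filter on low counts, and 4 with the stricter gate. With no filter all 10 were tested, and Hrh1, Hrh2, Hrh3 and Htr1a were added to the calls. Htr7 was tested there too and was not called higher in neurons. The 2 higher calls in non-neuronal classes became 4 with no filter, adding Hrh1 in macrophages and mural cells, and 4 with no doublet removal, adding Htr1b and Htr3a in non-myelinating Schwann cells; the cause was not tested. In each library alone, where no test is possible, the direction held for all 26, 5 and 2. Thinning to 10000 UMIs left 15 of the 19 receptor and class pairs at 10% of cells. By a mean over cells 9 of the 10 receptors kept their highest class. Depth limits the shares of cells with a UMI.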
